A study of Mus musculus with 8 samples.

Results

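Fibronectin and the matricellular proteins are secreted into the matrix around a cell. Here their genes were Fn1, Spp1, Sparc, Postn, Tnc, Thbs1, Thbs2, Tgfbi and Vcan. These 9 genes were taken by symbol, and all 9 had a row in the deposited table of 16369 genes. The libraries came from MLO-Y4, an established mouse osteocyte-like cell line that is a single clone from bone of a mouse carrying the SV40 large T antigen under the osteocalcin promoter. The 4 ASO libraries came from cells labelled H19 silenced, in which an antisense oligonucleotide (ASO) targeted the long non-coding RNA H19. The 4 control libraries came from cells labelled WT. What the controls received in place of the ASO is not stated, and the protocol text, which mentions silencing, is the same for all 8 samples. All 8 had fluid shear stress of 2 Pa for 4 cycles, so no library shows cells without flow. Independent cultures behind the 4 libraries per group are not stated, and the p-values therefore cover library-to-library spread that may be technical.

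Fibronectin is a multidomain glycoprotein that cells assemble into fibrils by pulling on it through integrins, and other matrix proteins are laid down on it. Matricellular proteins are secreted into the matrix but act mainly as signals, by binding integrins, growth factors, proteases and collagen, rather than as load-bearing fibres. Bone-forming cells and osteocytes secrete osteopontin, encoded by Spp1, and osteonectin, encoded by Sparc, and both bind mineral.

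Libraries held 19501984 to 19914209 estimated reads. H19 is not analysed here, so the silenced transcript gives no check of the labels. Over all tested genes the second principal component, with 17.1% of the variance, set samples 1 and 2 apart from 3 and 4, among ASO and among control libraries alike. The labels do not name this division, and each group has samples on both sides of it. Fold changes within each side are given for the tested members and not for other genes. Among the osteocyte markers, the sclerostin gene Sost had at most 2 reads in any library and Mepe at most 1. The podoplanin gene Pdpn averaged 197 CPM (counts scaled to library size) in ASO libraries and 169 CPM in control libraries, and the connexin gene Gja1 averaged 588 CPM in ASO libraries and 590 CPM in control libraries. Dmp1 averaged 0.658 CPM in ASO libraries and 1.82 CPM in control libraries, and Phex 9.82 CPM and 11.1 CPM. Ostn had at most 6 reads in any library. Some markers of the labelled osteocyte type were therefore well expressed, while Dmp1 was low and sclerostin and Mepe were absent or nearly so.

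Some sequences bear on the members. H19 is known to bind let-7 microRNAs, and thrombospondin 1 is a known let-7 target in human cells, so the letters opposite the let-7 seed were sought in the 3′ untranslated regions (longest GENCODE M21 form of each gene, GRCm38.p6). All 8 mouse let-7 5p forms in the RefSeq table (GRCm38.p6) share the seed, bases 2 to 8, which is in capitals in let-7a and let-7e, followed by the match in Thbs1, with the match in capitals:
let-7a-5p: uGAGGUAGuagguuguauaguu
let-7e-5p: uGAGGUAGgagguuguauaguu
Thbs1: tatacaaatatTACCTCAtttgttgtgtg
The Thbs1 stretch lies at chr2:118126528-118126556 on the plus strand, and its match starts at base 1510 of a 3′ untranslated region of 2104 bases. Its letters complement let-7 bases 2 to 7 and end in A, written TACCTCA. The longer match to bases 2 to 8, CTACCTC, was in 0 of the 9 members, and TACCTCA was in Thbs1 and in none of the other 8. Of 15453 genes in the deposited table with such a region, 1547 held CTACCTC and 1612 held TACCTCA (10.4%), matches on the transcript strand that may overlap by 6 letters. As both forms were sought, the share to set beside the members is that with either, 2483 genes (16.1%). Thbs1 had the longest such region of the 9 members, and the median over those genes was 1061 bases. These shares were not adjusted for length. A match of letters is a description and not a shown site.

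The 250 bases before a listed transcript start (RefSeq, GRCm38.p6) are shown for Thbs2, Vcan and Spp1. Thbs2 and Vcan were both lower with the ASO, and Spp1 was the member with the highest level. Capitals mark matches to the CCAAT box (CCAAT) and, in Spp1, also to RUNX (AACCACA), read on both strands:
Thbs2: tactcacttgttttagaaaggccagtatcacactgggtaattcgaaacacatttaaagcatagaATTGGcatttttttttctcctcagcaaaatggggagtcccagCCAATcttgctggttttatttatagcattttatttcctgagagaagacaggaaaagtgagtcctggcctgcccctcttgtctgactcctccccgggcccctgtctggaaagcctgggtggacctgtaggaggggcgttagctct
Vcan: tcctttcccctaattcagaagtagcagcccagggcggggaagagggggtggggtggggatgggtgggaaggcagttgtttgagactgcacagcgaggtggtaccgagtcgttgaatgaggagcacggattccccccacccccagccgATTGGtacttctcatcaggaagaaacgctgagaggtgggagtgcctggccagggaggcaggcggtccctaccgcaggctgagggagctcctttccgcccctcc
Spp1: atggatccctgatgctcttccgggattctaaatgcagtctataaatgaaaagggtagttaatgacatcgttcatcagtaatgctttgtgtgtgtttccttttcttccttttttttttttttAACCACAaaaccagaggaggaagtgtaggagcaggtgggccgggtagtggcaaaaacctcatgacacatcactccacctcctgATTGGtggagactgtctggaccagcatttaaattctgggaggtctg
These windows are chr17:14694263-14694512 (minus strand), chr13:89742513-89742762 (minus strand) and chr5:104434861-104435110 (plus strand). The Vcan window lies inside the annotated gene (chr13:89655309-89743027), before a transcript start that is not the outermost. Of 5 motifs searched, the CCAAT box was in these 3 of the 10 windows of the 7 members with an entry. Over 27025 mouse windows of the same length it was in 34.5%. RUNX was in the Spp1 window shown and in 4.5% of mouse windows. These 3 windows were the ones with any match, so they do not stand for the members, and another Spp1 window held none. AP-1 (TGANTCA, in 6.9% of windows), TEAD (GGAATG, in 12.6%) and the CArG box (in 1.4%) had no match in the 10 windows of the 7 members with an entry, and no 2 matches overlapped. Windows of Postn, Tnc, Sparc and Tgfbi held none of the 5 motifs. Fn1 and Thbs1 were the other two members.

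The first question was how strongly each gene was expressed. Levels are given in TPM, the authors' value scaled to transcript length and library depth, so that genes can be set side by side. Together the 9 genes made up 2.66% to 2.84% of all TPM in ASO libraries and 2.70% to 2.79% in control libraries, ranges that overlap.

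**Figure D1:**
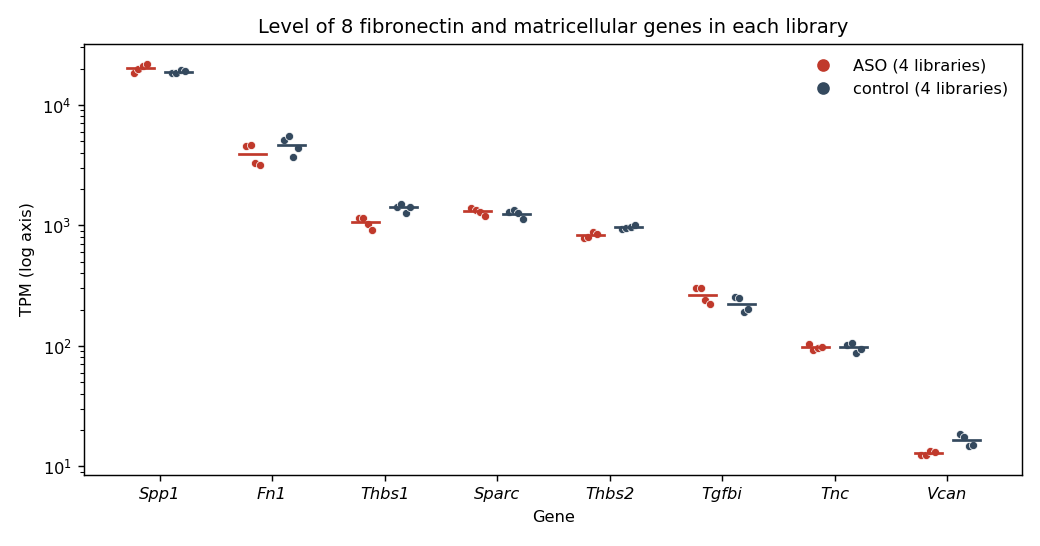
TPM (log axis) of the 8 detected genes in each library, ASO left and control right, with a line at the group mean. Spp1 lies between 18223 and 21984 TPM and Vcan between 12.4 and 18.4 TPM, and Sparc and Thbs1 change places between the groups.

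Spp1 encodes osteopontin, a phosphorylated protein that binds mineral and integrins. It had 18225, 19647, 21089 and 21984 TPM in ASO libraries, against 18223, 18265, 19478 and 18922 TPM in control libraries. It had the highest TPM of all genes in every one of the 8 libraries and made up 68.6% to 77.3% of the TPM of the 9 genes in ASO libraries and 65.4% to 72.2% in control libraries. Fn1 came next with a mean of 3930 ± 802 TPM in ASO libraries and 4670 ± 812 TPM in control libraries (SD, n = 4 each). Because its transcript is long, Fn1 took 1.63% to 2.27% of all reads in ASO libraries and 1.83% to 2.64% in control libraries, and it ranked first or second of all genes by reads in each library.

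The next 3 members lay close together. In ASO libraries Sparc averaged 1302 ± 86.1 TPM, Thbs1 1062 ± 111 TPM and Thbs2 826 ± 40.2 TPM (SD, n = 4). In control libraries Thbs1 averaged 1407 ± 100 TPM, Sparc 1250 ± 91.3 TPM and Thbs2 966 ± 29.4 TPM. Sparc stood above Thbs1 in 4 of 4 ASO libraries, and Thbs1 stood above Sparc in 4 of 4 control libraries. The ratio of Thbs1 to Sparc TPM was 0.775 to 0.866 in ASO libraries and 1.00 to 1.28 in control libraries, without overlap. It was singled out after the values had been seen and was not tested. In control libraries the TPM ranges of Thbs1 and Sparc overlapped, which was the 1 pair of neighbours in the order, in either group, to do so. Without control replicate 3 they did not overlap.

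Lower in the order were Tgfbi, with 266 ± 40.1 TPM in ASO libraries and 224 ± 31.8 TPM in control libraries, and Tnc, with 97.4 ± 4.80 TPM in ASO libraries and 96.8 ± 7.68 TPM in control libraries. Vcan had 12.8 ± 0.474 TPM in ASO libraries and 16.4 ± 1.78 TPM in control libraries. Postn, which encodes periostin, a protein of periosteum and ligament that binds collagen and integrins, was at the detection limit. It had 1, 0, 0 and 0 reads in ASO libraries and 0, 1, 0 and 2 reads in control libraries, and a count of 0 allows up to 0.154 CPM (3 reads, counting error only). No fold is given for it.

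The second question was which of these genes differed with the ASO. Of the 8 members that passed the filter on low counts, 3 were lower and 0 were higher: Thbs1, Thbs2 and Vcan (quasi-likelihood test of edgeR, adjusted over all genes by Benjamini-Hochberg, threshold 0.05). Of all 12227 tested genes 14.6% passed in either direction, 7.53% lower and 7.11% higher. Tgfbi was the 1 member that was higher at an unadjusted p under 0.05, and DESeq2 also called 3 lower and 0 higher. The median log2 fold change of the 8 was -0.10, against 0.00 for all tested genes, and 4 of the 8 lay above 0. In bulk RNA fewer cells of a type and less RNA per cell cannot be told apart. The 4 ASO libraries lay wholly to one side of the 4 control libraries in the same 3 genes, as they did in 19.1% of all tested genes.

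**Figure D2:**
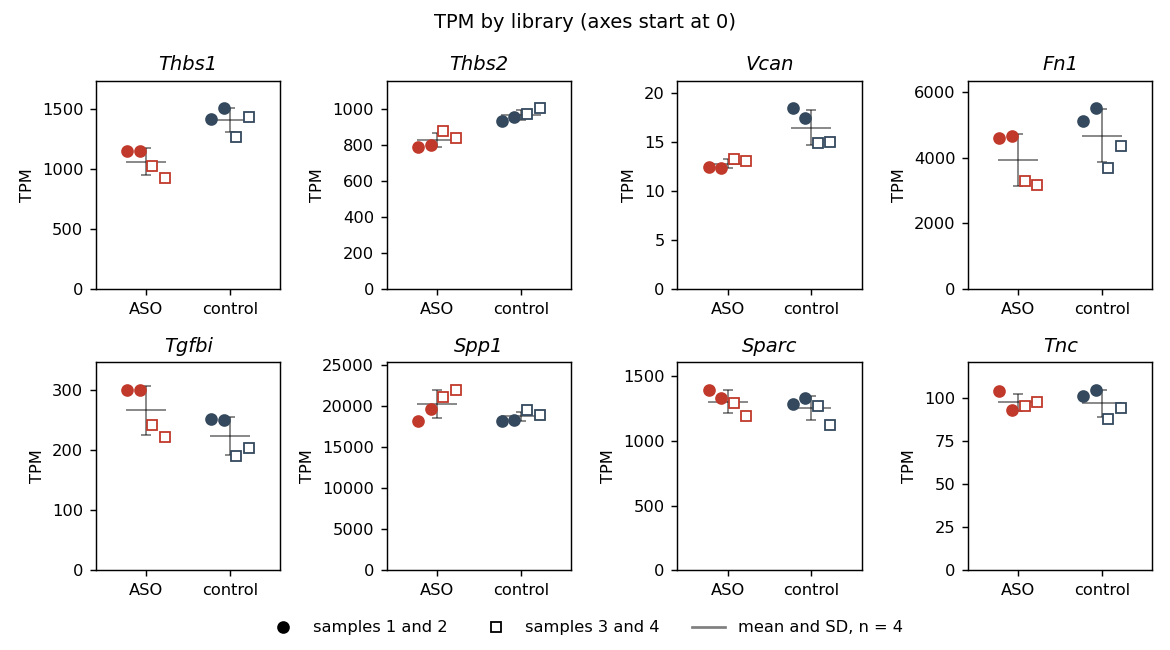
TPM of each gene in each library, ASO left and control right, with mean and SD and every axis starting at 0. Filled circles are samples 1 and 2 and open squares samples 3 and 4. Thbs1, Thbs2 and Vcan do not overlap between groups, while in Fn1 and Tgfbi the squares lie below the circles in both groups.

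Thrombospondins are secreted glycoproteins that bind cell-surface receptors and proteases and are known to limit the growth of blood vessels. Thrombospondin 1 also activates latent TGF-beta. Its gene Thbs1 (gene 21825, chr2:118111876-118127133, GRCm38.p6) had 1148, 1154, 1025 and 922 TPM in ASO libraries, against 1421, 1508, 1268 and 1431 TPM in control libraries. Every ASO library was below every control library. The log2 fold change was -0.39 ± 0.08 (SE), so that the level fell by 23.5% (edgeR adjusted p = 0.0050). It was -0.35 ± 0.07 in samples 1 and 2 alone (adjusted p = 0.013) and -0.43 ± 0.09 in samples 3 and 4 alone (adjusted p = 0.0010). The adjusted p was at most 0.028 in all 23 alternatives.

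Thrombospondin 2 is the close relative of thrombospondin 1 and is also known as a regulator of collagen fibril assembly in skin and bone. Thbs2 (gene 21826, chr17:14665500-14694262) had 787, 802, 876 and 839 TPM in ASO libraries, against 935, 954, 972 and 1004 TPM in control libraries. The groups did not overlap, but the difference was smaller than that of Thbs1. The log2 fold change was -0.20 ± 0.06, so that the level fell by 13.2% (edgeR adjusted p = 0.045). This call lay close to the threshold. It held without ASO replicate 3 (adjusted p = 0.029) and ended in each of the other 7 fits that left out 1 library (adjusted p 0.064 to 0.11). In samples 1 and 2 alone the value was -0.25 ± 0.07 and the call held (adjusted p = 0.043), while in samples 3 and 4 alone it was -0.16 ± 0.08 and the call ended (adjusted p = 0.20). It also ended with library-size scaling (adjusted p = 0.060) and on log2(FPKM + 1) (adjusted p = 0.069).

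Versican, encoded by Vcan, is a large chondroitin sulphate proteoglycan that binds hyaluronan and swells the matrix around cells. Vcan (gene 13003, chr13:89655309-89743027) had 12.4, 12.4, 13.3 and 13.1 TPM in ASO libraries, against 18.4, 17.5, 14.9 and 15.03 TPM in control libraries. The ASO libraries lay within a narrow range, and control samples 1 and 2 lay above control samples 3 and 4. The log2 fold change was -0.37 ± 0.08, so that the level fell by 22.4% (edgeR adjusted p = 0.010), and the call held without each library in turn (adjusted p up to 0.036). It was -0.57 ± 0.07 in samples 1 and 2 alone (adjusted p = 0.00073) and -0.15 ± 0.07 in samples 3 and 4 alone, where the call ended (adjusted p = 0.18). The test of the difference between these values, chosen after they had been seen, gave 0.42 ± 0.10 on the log2 scale with adjusted p = 0.27 over all genes. A pseudogene and a long non-coding RNA gene overlap Vcan in the annotation, and as strand is not stated, their reads could not be told apart from those of Vcan.

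**Figure D3:**
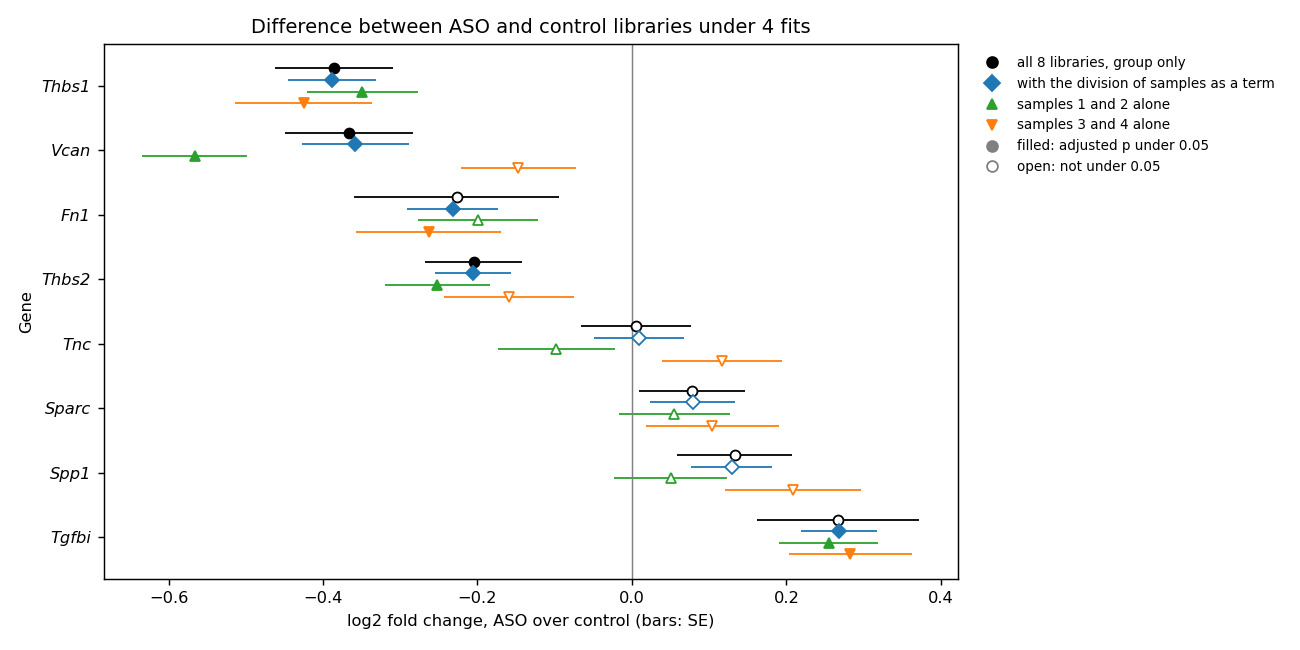
Log2 fold change of ASO over control for each tested gene (points) with SE (bars), from 4 fits. Filled points have an adjusted p under 0.05. Thbs1 is filled in all 4, Thbs2 and Vcan are open in samples 3 and 4 alone, and Fn1 and Tgfbi change from open to filled once the division of samples is a term.

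Fn1 (gene 14268, chr1:71585473-71653280) had 4592, 4654, 3304 and 3172 TPM in ASO libraries, against 5123, 5512, 3690 and 4353 TPM in control libraries. The groups overlapped, and in both groups samples 3 and 4 were lower than samples 1 and 2. On the log2 CPM scale this gap was -0.46 among ASO libraries and -0.40 among control libraries, larger than the difference between the groups. The log2 fold change of ASO over control was -0.23 ± 0.13, with a 95% interval from -0.51 to 0.06, and did not pass (edgeR adjusted p = 0.27). With 1 library left out it ran from -0.32 to -0.14 and did not pass in any of these fits, the value nearest 0 being that without control replicate 2. Within samples 1 and 2 alone it was -0.20 ± 0.08 (adjusted p = 0.15) and within samples 3 and 4 alone -0.26 ± 0.09 (adjusted p = 0.0499). With the division of samples as a term the value was -0.23 ± 0.06 (adjusted p = 0.0074), so the call of Fn1 turned on whether that division was in the fit.

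Tgfbi encodes a secreted protein induced by TGF-beta that binds integrins and collagen. Tgfbi (gene 21810, chr13:56609586-56639359) had 300.2, 299, 241 and 222 TPM in ASO libraries, against 252, 249.6, 190.3 and 203 TPM in control libraries. As in Fn1, samples 3 and 4 were lower than samples 1 and 2 in both groups (-0.32 among ASO libraries and -0.35 among control libraries on the log2 CPM scale). On each side of the division both ASO libraries were above both control libraries. The log2 fold change was 0.27 ± 0.10 and did not pass over all 8 libraries (edgeR adjusted p = 0.10). It was 0.26 ± 0.06 in samples 1 and 2 alone (adjusted p = 0.032), 0.28 ± 0.08 in samples 3 and 4 alone (adjusted p = 0.013) and 0.27 ± 0.05 with the division as a term (adjusted p = 0.00064).

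The remaining 3 tested members did not pass. For Spp1 (gene 20750, chr5:104435111-104441053) the log2 fold change was 0.13 ± 0.07 with a 95% interval from -0.03 to 0.29 (edgeR adjusted p = 0.24). It was 0.05 ± 0.07 in samples 1 and 2 alone (adjusted p = 0.73) and 0.21 ± 0.09 in samples 3 and 4 alone (adjusted p = 0.0999). Sparc (gene 20692, chr11:55394159-55420080) encodes osteonectin, which binds collagen and calcium. It had 1394, 1332, 1293 and 1189 TPM in ASO libraries, against 1283, 1331, 1266 and 1119.5 TPM in control libraries. Its log2 fold change was 0.08 ± 0.07, with an interval from -0.07 to 0.23 (adjusted p = 0.47), and it was 0.06 in samples 1 and 2 alone and 0.10 in samples 3 and 4 alone. Tenascin C, encoded by Tnc (gene 21923, chr4:63959785-64047015), is a six-armed protein of developing, injured and loaded tissue that loosens adhesion to fibronectin. It had 104, 92.7, 95.3 and 97.6 TPM in ASO libraries, against 101, 105, 87.5 and 93.9 TPM in control libraries. Its log2 fold change was 0.0045 ± 0.07, with an interval from -0.15 to 0.16 (adjusted p = 0.97), and it was -0.10 in samples 1 and 2 alone (adjusted p = 0.47) and 0.12 in samples 3 and 4 alone (adjusted p = 0.33). A long non-coding RNA gene overlaps Tnc in the annotation.

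Profiles most like those of 2 members were found by the root mean square difference of centred log2 CPM over the 8 libraries, among 11257 other genes. The profile includes the group difference, so a fold change close to the member's follows from the choice and is given as a description. For Thbs1 they were Gcnt2 (0.033), Heg1 (0.035) and Inppl1 (0.045), with log2 fold changes of -0.38 ± 0.07, -0.42 ± 0.08 and -0.36 ± 0.07. For Fn1 they were Zmiz1 (0.046), Pyroxd2 (0.055) and Dock6 (0.058), with log2 fold changes from -0.22 to -0.20. As with Fn1, none of these 3 was called over all 8 libraries by group alone, and all 3 were with the division of samples as a term.

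Other matricellular and related matrix genes fell in part. Of 30 listed, 18 were tested, 5 were lower and 0 higher, against 7.53% lower and 7.11% higher of all tested genes. At an unadjusted p under 0.05, 1 was higher, and DESeq2 called 6 lower and 0 higher. The median log2 fold change of the 18 was -0.24, against 0.00 over all tested genes. Sparcl1, the relative of Sparc, had 64.1, 67.4, 58.3 and 58.5 TPM in ASO libraries, against 96.3, 106, 78.6 and 83.2 TPM in control libraries. Its log2 fold change of -0.53 ± 0.08 (edgeR adjusted p = 0.0015) stands beside 0.08 for Sparc. Ccn2, a matricellular gene that responds to TGF-beta and to stretch, was lower by -0.53 ± 0.13 on the log2 scale (edgeR adjusted p = 0.015). Its groups overlapped in CPM but not in TPM (2632 to 3706 in ASO libraries and 3771 to 5524 in control libraries). Without control replicate 4 its edgeR adjusted p was 0.052. The fibulin gene Fbln5, a partner of elastin, was lower by -0.48 ± 0.09, and Dmp1, which like Spp1 encodes a mineral-binding phosphoprotein, by -1.46 ± 0.34 at 0.658 CPM in ASO libraries and 1.82 CPM in control libraries. Tnr, a tenascin of the nervous system, had -0.84 ± 0.19, with counts that were not whole in any library, which leaves its value uncertain. Among the thrombospondins Thbs3 did not pass (-0.04 ± 0.06, adjusted p = 0.68).

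**Figure D4:**
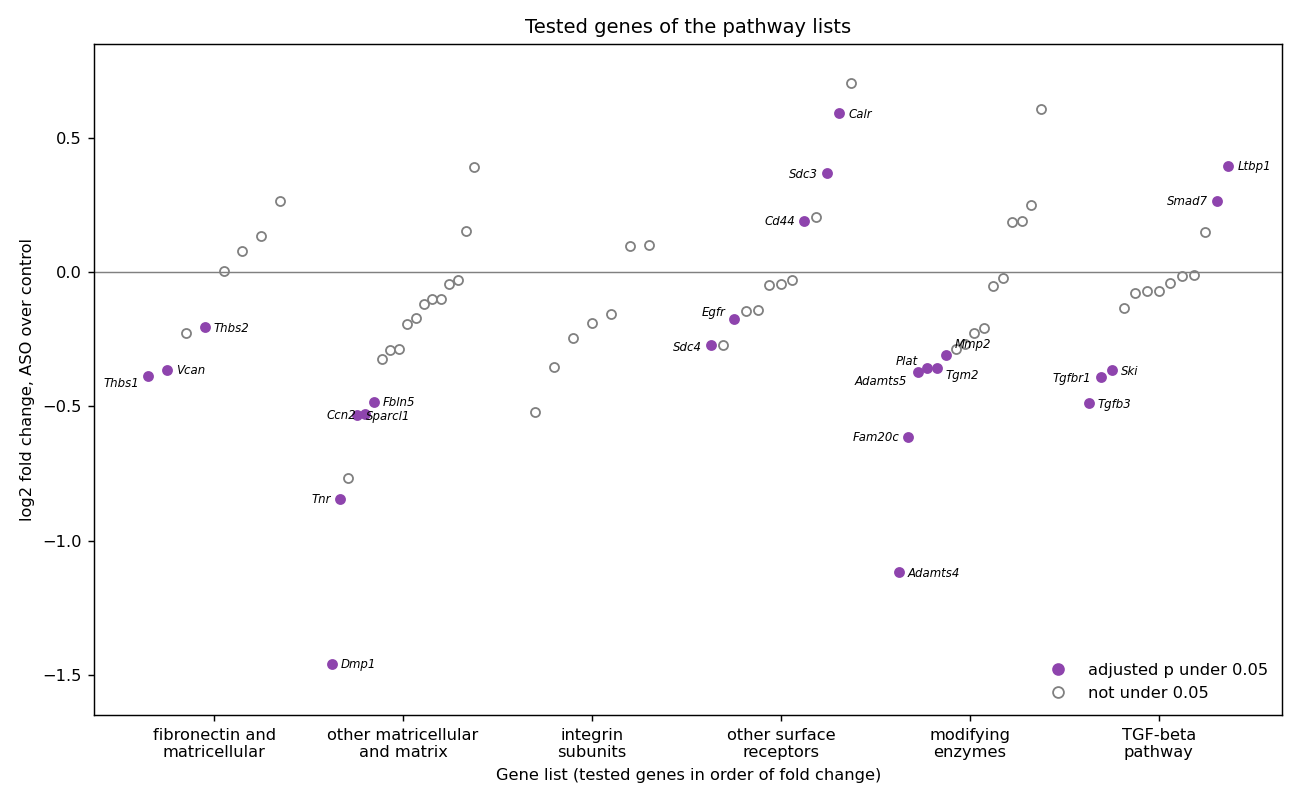
Log2 fold change of ASO over control for the tested genes of 6 lists, in order within each list. Filled, named points have an adjusted p under 0.05. Filled points lie below 0 among matricellular genes and modifying enzymes, on both sides among surface receptors and in the TGF-beta pathway, and the integrin subunits have none.

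Of 11 integrin subunits that bind these proteins, 7 were tested and 0 passed by edgeR, against 14.6% of all tested genes. The median log2 fold change of the 7 was -0.19. At an unadjusted p under 0.05, 5 were lower and 0 higher, while DESeq2 called 2 lower and limma-voom 1. Itga5, a subunit of the main fibronectin receptor, was named after its value had been seen, and its log2 fold change was -0.35 ± 0.11 (edgeR adjusted p = 0.055). Of 15 other surface receptors 13 were tested, with 3 higher and 2 lower, beside 7.11% higher and 7.53% lower of all tested genes. Calr, which encodes calreticulin, a chaperone that at the cell surface takes part in thrombospondin signalling, rose by 0.59 ± 0.08 on the log2 scale (adjusted p = 0.00037). It had 1182, 1259, 1317 and 1334 TPM in ASO libraries, against 902, 758, 945 and 825 TPM in control libraries. The syndecans are proteoglycan co-receptors: Sdc3 was higher (0.37 ± 0.09) and Sdc4, which cooperates with integrins on fibronectin, was lower (-0.27 ± 0.06, adjusted p = 0.0080). Cd44, a receptor of hyaluronan and osteopontin, was higher (0.19 ± 0.05, adjusted p = 0.033), and Egfr, which tenascin C can engage, was lower (-0.17 ± 0.05, adjusted p = 0.042). The call of Cd44 held only without ASO replicate 1 or control replicate 3, and that of Egfr only without ASO replicate 2, of the 8 fits that left out 1 library.

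Of 19 genes listed as enzymes and partners that modify or cleave the members 16 were tested, with 6 lower and 0 higher. Over all tested genes 7.53% were lower and 7.11% higher. At an unadjusted p under 0.05, 1 of the 16 was higher, and DESeq2 called 0 higher. The median log2 fold change of the 16 was -0.25. Adamts4, a protease that cuts versican and aggrecan, had 5.15, 4.79, 5 and 4.38 TPM in ASO libraries, against 11.96, 13.6, 7.79 and 9.15 TPM in control libraries. Its log2 fold change was -1.12 ± 0.14 (edgeR adjusted p = 0.00036). Fam20c, the kinase that phosphorylates osteopontin, had -0.61 ± 0.11, and Tgm2, a transglutaminase that crosslinks fibronectin and osteopontin, had -0.36 ± 0.07. The plasminogen activator gene Plat had -0.36 ± 0.07 and the gelatinase gene Mmp2 -0.31 ± 0.06, each with adjusted p at most 0.0056. Among 13 tested genes of TGF-beta signalling, 2 were higher and 3 lower, with a median of -0.07. Tgfb3 (-0.49 ± 0.07), the receptor gene Tgfbr1 (-0.39 ± 0.12) and the co-repressor gene Ski (-0.36 ± 0.08) were lower, and the latent binding protein gene Ltbp1 (0.40 ± 0.07) and the inhibitory Smad7 (0.27 ± 0.06) were higher. The call of Tgfbr1 held only without ASO replicate 1 or control replicate 3 (adjusted p up to 0.12 otherwise).

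Some cell type markers differed between the groups, in both directions among osteocyte and osteoblast markers. The summed levels of these lists, mostly a few abundant genes, overlapped. The part of these markers in the results above was not tested. Over all tested genes 7.11% were higher and 7.53% lower. Of 8 tested osteocyte markers 2 were higher (Pdpn, 0.22, and Capg, 0.17) and 3 lower (Dmp1, -1.46, Fbln7, -0.46, and Dstn, -0.25). The summed level of that list was 1260 to 1393 TPM in ASO libraries and 1252 to 1315 TPM in control libraries. Most of that sum was Capg and Gja1, so markers as low as Dmp1 hardly enter it. Capg and Gja1 averaged 629 and 322 TPM in ASO libraries and 572 and 328 TPM in control libraries. Of 7 tested osteoblast markers 2 were higher (Alpl, 0.37, and Sp7, 0.43) and 2 lower (Bglap2, -0.72, and Bglap, -0.60, near copies with counts that were not whole), with sums of 2708 to 3435 TPM in ASO libraries and 2841 to 3695 TPM in control libraries. Most of these sums was Col1a1 and Col1a2, neither of them called. Col1a1 and Col1a2 averaged 1808 and 865 TPM in ASO libraries and 1687 and 950 TPM in control libraries. Of 3 tested macrophage markers 1 was higher, the lysosomal protein gene Cd68 (1.54 ± 0.13, edgeR adjusted p = 1.7e-05). The receptor gene Csf1r, named after its value had been seen, had 0.68 ± 0.22 (edgeR adjusted p = 0.052) at 2.79 CPM in ASO libraries and 1.74 CPM in control libraries, without overlap, and DESeq2 called 2 of the 3 higher. The remaining tested marker, Lyz2, went the other way and did not pass (-0.27 ± 0.22, edgeR adjusted p = 0.43). The sum of that list was 30.2 to 38.1 TPM in ASO libraries and 11.1 to 15.7 TPM in control libraries. Most of that sum was Cd68, with 27.2 to 34.5 TPM in ASO libraries and 7.56 to 12.4 TPM in control libraries. The defining gene Ptprc had at most 13 reads and Itgam at most 4 reads in any library. Of 2 tested chondrocyte markers both were lower (Sox9, -0.44, and Col2a1, -1.07, at 0.555 CPM in ASO libraries and 1.17 CPM in control libraries), with sums of 63.8 to 85.4 TPM in ASO libraries and 88.1 to 129 TPM in control libraries. Of 4 tested smooth muscle markers 2 were lower (Tagln, -0.82, and Des, -0.55), with sums of 23.0 to 37.1 TPM in ASO libraries and 41.4 to 60.2 TPM in control libraries. Most of these sums was Tagln, with means of 21.3 TPM in ASO libraries and 38.1 TPM in control libraries. Endothelial markers had 0 tested genes and summed to at most 0.54 TPM in ASO libraries and 0.34 TPM in control libraries. With 1 library left out, the calls of Pdpn and Sp7 were lost in 5 of 8 fits and that of Capg in 8, that of Bglap without control replicate 2 and that of Sox9 without control replicate 4.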

How the data were processed

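RNA-seq of 8 MLO-Y4 libraries (4 ASO, 4 control) was analysed, with groups and replicate numbers from the sample titles. The authors deposited estimated counts, TPM and FPKM per gene and library, per the file headers. The submitters' processing notes name HISAT, Bowtie2, GRCm38.p6 and mm10 without roles, with the counting tool and strand setting not given in the sources used here. Between 6.01% and 6.60% of genes per library had fractional counts, none of them a tested member, and all counts were rounded. Replicates differed by more than sampling noise (chi-square per degree of freedom 4.71 to 18.3).

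Low counts were removed by filterByExpr, TMM factors were applied, and edgeR 4.0.16 gave the tests (quasi-likelihood, group as the single term, R 4.3.3), with Benjamini-Hochberg adjustment over all 12227 genes at 0.05. SE derive from the F statistic, and intervals are 95%. Alternatives used DESeq2 1.42.0, limma 3.58.1, other scalings, filters, terms and sample subsets. The members, the lists and the division of samples were chosen with earlier results of these data known. Named genes were the 9 members, in each other list all genes past the threshold or, above 5, the 5 with the smallest p, and the 3 profiles nearest to Fn1 and to the member with the smallest p (mean of at least 1 CPM). Thbs3, Itga5, Csf1r, Lyz2, Gja1, Phex, Ostn, Sost, Mepe, Ptprc and Itgam were named outside this rule, after their values had been seen. Numbers shared by replicates did not pair the samples by the check described under the processing alternatives. Listed genes without a row are not analysed here.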

Additional observations from a re-analysis of the deposited data

How the results depend on the processing

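Thbs1 kept its direction and its call in all 23 alternatives (log2 fold change -0.43 to -0.33), and Vcan kept its direction in all 23 and lost its call in samples 3 and 4 alone and at an adjusted p under 0.01. Spp1 (0.05 to 0.21) and Sparc (0.03 to 0.12) kept their direction and were not called in any of the 23. Tnc changed sign in samples 1 and 2 alone (-0.10), and its leave-one-out values ran from -0.046 to 0.054. The count of members past the threshold, 3, was 5 with the division of samples as a term (Fn1 lower and Tgfbi higher were added), 1 at an adjusted p under 0.01, and 2 to 3 with each library left out. The count over all genes, 1790, was 3169 with the division as a term. It was 1036 in samples 1 and 2 alone and 2135 in samples 3 and 4 alone. It was 1167 on log2(TPM + 1) with no filter and 702 at an adjusted p under 0.01. With each library left out it was 1105 to 1940. The lowest of the counts with 1 library left out, 1105, came without control replicate 2. The counts without ASO replicate 3 and without ASO replicate 4 were 1191 and 1129. The cause was not tested. Leaving out each control library gave 0 to 1 overlapping neighbours in the order of levels in control libraries, and the value stayed at 0 in ASO libraries.

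Same-numbered samples had deviations from their group means that correlated at 0.049, 0.142, 0.214 and 0.127, so not every pair was over 0.1, and not every sample correlated best with its own number. With a replicate block 5 members and 2622 genes passed. Among the members the depth left Postn untested, and the floor given for it covers counting error only.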
